A study of Homo sapiens with 4 samples.

Results

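The insulin-like growth factor (IGF) binding proteins, the IGF receptors and the IGF-like protein IGFL1 were followed in CAPAN2 cells, an established human pancreatic ductal adenocarcinoma line. The 10 genes, IGFBP1 to IGFBP7, IGF1R, IGF2R and IGFL1, were taken by name, and every probe set that the platform annotation assigns to 1 of these symbols alone was kept. A probe set is the group of short array probes that reads 1 transcript region. This gave 25 probe sets of 54675 on the array, and 10 of the 19775 genes tested. The value of a gene with several probe sets is that of its brightest one, by the mean of the 4 arrays.

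IGF1 and IGF2 are secreted growth factors that signal through IGF1R, a receptor tyrosine kinase, to the adaptors IRS1 and IRS2 and on to the PI3K and AKT arm. The binding proteins IGFBP1 to IGFBP6 hold IGFs outside the cell and either withhold them from the receptor or deliver them to it, depending on where and how the binding protein is cleaved. IGFBP7 binds IGFs weakly, and IGF2R takes up and degrades IGF2 without a kinase of its own. IGFL1 is a small secreted protein with a cysteine pattern resembling that of IGFs and is a ligand of IGFLR1, not of IGF1R.

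All cells were cultured in DMEM with serum and were transduced with lentivirus overnight in the presence of hexadimethrine bromide. The control group, 2 arrays, received control lentivirus, and the other group, 2 arrays, received lentivirus with shRNAs against LLGL1, a cell polarity protein. The labels call the arrays of a group biological replicates but do not name separate cultures, so the p-values rest on a spread between arrays that may be technical. Neither the time from transduction to harvest nor the number of shRNAs is stated in the labels.

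The deposited values are log2 signals, and the array medians ran from 2.95 to 2.98. Across probe sets, arrays of the same group correlated at r = 0.997 in both groups. LLGL1 itself was not measurably lower in its brightest probe set (log2 difference -0.12, 95% interval -0.27 to 0.02, limma adjusted p = 0.22), so the groups are named here as labelled, and every direction is between arrays as labelled. Of the 8 ductal adenocarcinoma markers, 7 lay above 7 on the log2 scale in both groups and KRT7 was lower, at 4.28 and 4.30 on the control arrays. KRT19 and CDH1 fell and KRT7 rose on the arrays labelled LLGL1 shRNA. No marker of fibroblasts (7 measured), endothelial cells (5), immune cells (3) or acinar cells (3) passed the test. Of the 4 hepatocyte markers 1 passed, FGB, which rose and is described with IGFBP1 below. The poly-A spikes, transcripts added to total RNA before labelling, read lower in the LLGL1 shRNA group in each of their 24 probe sets, by a mean of -1.14 on the log2 scale, and 18S ribosomal RNA by -1.97. The part of these differences in the values below was not tested.

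IGFBP3 and IGFL1 fell and IGFBP7, IGFBP1, IGFBP4 and IGFBP2 rose on the arrays labelled LLGL1 shRNA. IGFBP5, IGFBP6 and both receptors did not pass the test in their brightest probe sets. Signals come from whole cultures, so fewer cells expressing a gene and less of its RNA per cell cannot be told apart. The 6 calls of 10 genes (4 higher, 2 lower) came from limma's test at a Benjamini-Hochberg adjusted p below 0.05 over all genes, a rule that called 6.28% of all genes tested, 3.21% higher and 3.07% lower. For 3 of the 10 genes the group means were at least 2-fold apart, against 0.678% of all genes. The groups did not overlap for 9 of the 10 genes, which was so for 52.4% of all genes and therefore says little by itself. The median absolute log2 difference was 0.39 over the 10 genes and 0.13 over all genes. Because the 10 genes were chosen with earlier results of these data known, these comparisons with all genes do not test the family. No call remained when p-values were adjusted over 54613 single probe sets, a rule that called 0.125% of them, and the 6 genes then had limma adjusted p from 0.0545 to 0.0848. Leaving out 1 array leaves a lone array in a group, so no call is taken from those fits and only the size of the difference is given.

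**Figure D1:**
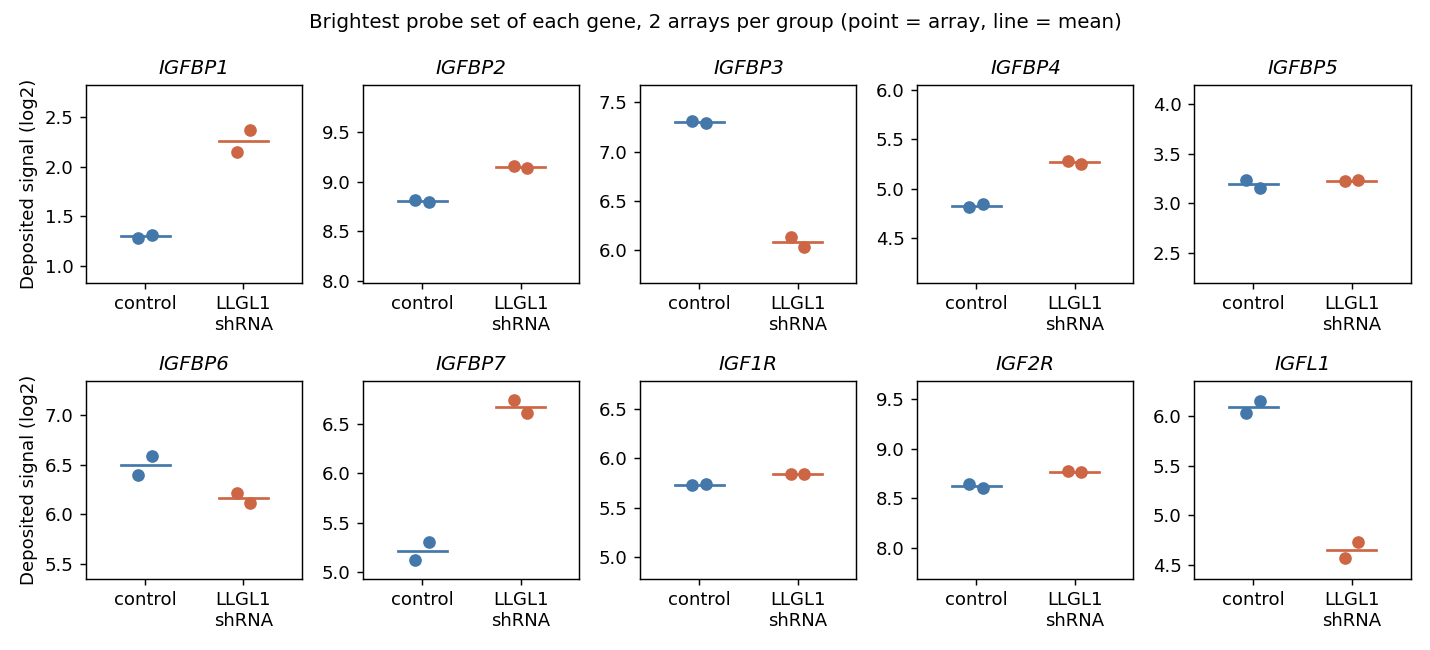
Deposited log2 signal (vertical axis, the same span of 2 log2 units in every panel) of the brightest probe set of each of the 10 genes on the 2 control arrays (blue) and the 2 arrays labelled LLGL1 shRNA (orange), with the group mean as a line. The points of IGFBP3, IGFBP7 and IGFL1 are furthest apart between groups, and only those of IGFBP5 overlap.

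IGFBP3, the most abundant IGF carrier of blood and one whose binding keeps IGFs from their receptor, fell. Its brightest probe set, 210095_s_at, read 7.31 and 7.29 (log2) on the control arrays and 6.13 and 6.03 on the arrays labelled LLGL1 shRNA. Both LLGL1 shRNA arrays were more than 1 log2 unit below both control arrays, while replicates differed little. The difference of -1.22 (SE 0.0619, 95% interval -1.39 to -1.05) is 2.33-fold lower (limma adjusted p = 0.0214). Only 0.44% of all genes differed by as much in either direction. The second IGFBP3 probe set, 212143_s_at, read 5.24 and 5.36 on the control arrays and 4.48 and 4.27 on the others. It differed in the same direction by -0.93 (95% interval -1.22 to -0.64), without passing when tested on its own (limma adjusted p = 0.0699).

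IGFBP7, a secreted protein of vessel walls and matrix that binds insulin and IGFs with low affinity, rose most among the 10 genes. Probe set 201163_s_at read 5.13 and 5.30 on the control arrays against 6.74 and 6.60 on the arrays labelled LLGL1 shRNA, a 2.75-fold difference (log2 1.46, SE 0.0935, 95% interval 1.20 to 1.72, limma adjusted p = 0.0246). The groups were well separated, and replicates of each lay within 0.2 of each other. A second probe set, 201162_at, read 5.25 and 5.15 against 6.38 and 6.33, higher by 1.15 (95% interval 0.96 to 1.35). It did not pass when tested on its own (limma adjusted p = 0.0576). The third, 213910_at, stayed near 1 on all 4 arrays, below the array medians, and differed by 0.0002. As the mean of all 3, IGFBP7 was 0.87 higher (limma adjusted p = 0.0179), so the size depends on the choice of probe set. Fibroblasts and endothelial cells are known sources of IGFBP7 in tissue. On these arrays the unlogged signals of the 7 fibroblast markers summed to 69.8 and 70.6 in the control group. In the other group they summed to between 66.6 and 79.9. The largest part was COL1A1, which read 5.27 and 5.24 (log2) on the control arrays and 5.09 and 5.50 on the others. The 5 endothelial markers summed to between 39.2 and 40.4 in the control group and between 38.4 and 42.0 in the other. The part of either set in the IGFBP7 result was not tested.

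IGFBP1, a binding protein made mainly by liver and repressed by insulin, was at the bottom of the signal range. Probe set 205302_at read 1.28 and 1.31 on the control arrays and 2.15 and 2.37 on the arrays labelled LLGL1 shRNA. All 4 values lie below the array medians, where weak transcripts and background cannot be told apart, so no fold is given. The log2 difference of 0.96 (95% interval 0.70 to 1.23) passed (limma adjusted p = 0.0331). The other IGFBP1 probe set, 237989_at, read between 1.13 and 1.31 on the 4 arrays and differed by -0.10 (95% interval -0.30 to 0.11). The intervals of the 2 probe sets do not overlap, and their mean was 0.43 higher (limma adjusted p = 0.0303). Of 4 hepatocyte markers, FGB rose as well (log2 1.97, limma adjusted p = 0.0365), from 2.72 and 3.28 to 5.11 and 4.82, while ALB, APOA1 and TTR did not pass. The unlogged hepatocyte sum was 29.0 and 29.9 in the control group and 50.9 and 54.5 in the other. Its rise lay in FGB, whose log2 group means unlog to 7.99 and 31.2. Those of ALB unlog to 2.41 and 2.61, of APOA1 to 5.92 and 5.96, and of TTR to 12.8 and 12.7. The part of these signals in the IGFBP1 result was not tested.

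IGFBP2 and IGFBP4 rose by smaller amounts. IGFBP2, which carries an integrin-binding motif beside its IGF site, read 8.81 and 8.79 on the control arrays and 9.16 and 9.14 on the others. That is a 1.27-fold rise (log2 0.35, 95% interval 0.21 to 0.49, limma adjusted p = 0.0464), and 12% of all genes differed by as much. IGFBP4, an inhibitor of IGF action that the protease PAPPA inactivates by cleavage, read 4.82 and 4.84 against 5.28 and 5.25. It was 1.35-fold higher (log2 0.44, 95% interval 0.29 to 0.58, limma adjusted p = 0.0365). Each of these genes has 1 probe set, and in both the gap between the groups was many times that between replicates.

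IGFBP6, which prefers IGF2 over IGF1, read 6.40 and 6.59 on the control arrays and 6.21 and 6.11 on the arrays labelled LLGL1 shRNA. The groups did not overlap, but the control arrays lay 0.19 apart and the difference of -0.33 (95% interval -0.58 to -0.08) did not pass (limma adjusted p = 0.114). It passed with trend and robust moderation (limma adjusted p = 0.0209), which called 3935 of 19775 genes. It also passed without genes under the median level (limma adjusted p = 0.0166), which called 3984 of 9888. IGFBP5, which binds matrix and, like IGFBP3, joins the acid labile subunit in blood, read 3.24 and 3.16 against 3.22 and 3.24. Those arrays overlap, and the log2 difference was 0.03 (95% interval -0.13 to 0.19, limma adjusted p = 0.77). The 5 dimmer IGFBP5 probe sets differed by -0.36 to 0.21 without passing, and 203426_s_at read 2.49 and 3.20 on the 2 control arrays, wider apart than any group difference among the 6.

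IGF1R, the signalling receptor for both IGFs, differed from one probe set to another. Its brightest probe set, 225330_at, read 5.73 and 5.74 on the control arrays and 5.84 on each of the others, a log2 difference of 0.11 (95% interval -0.03 to 0.25, limma adjusted p = 0.265). The next brightest on the arrays labelled LLGL1 shRNA, 203627_at, read 3.56 and 3.27 on the control arrays and 5.20 and 5.15 on the others, so the groups were far apart there. It was 3.38-fold higher (log2 1.76, 95% interval 1.42 to 2.10) but was not called in the fit over single probe sets (limma adjusted p = 0.0586). Probe set 203628_at differed by 0.50 (95% interval 0.23 to 0.77), from 3.58 and 3.79 to 4.20 and 4.16. The other two, 243358_at and 208441_at, lay below the array medians and differed by 0.15 and 0.01. The probe-set intervals of 225330_at, -0.04 to 0.26, and 203627_at do not overlap. As the mean of all 5 probe sets IGF1R was 0.51 higher and passed (limma adjusted p = 0.0265), so whether IGF1R is called depends on the probe sets used. Where in the transcript each probe set lies was not examined.

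IGF2R, the receptor that clears IGF2 and carries mannose 6-phosphate tagged enzymes to lysosomes, had probe sets of opposite sign. The brightest, 201393_s_at, read 8.64 and 8.60 against 8.77 and 8.76, a difference of 0.15 (95% interval 0.00 to 0.29, limma adjusted p = 0.174). Probe set 201392_s_at read 7.57 and 7.61 against 7.26 and 7.10, lower by -0.41 (95% interval -0.64 to -0.18, limma adjusted p = 0.109 when tested on its own). In both the groups did not overlap, in opposite directions, and their probe-set intervals do not overlap. The third, 1569052_at, differed by -0.05. The mean of all 3 was -0.10 and did not pass.

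**Figure D2:**
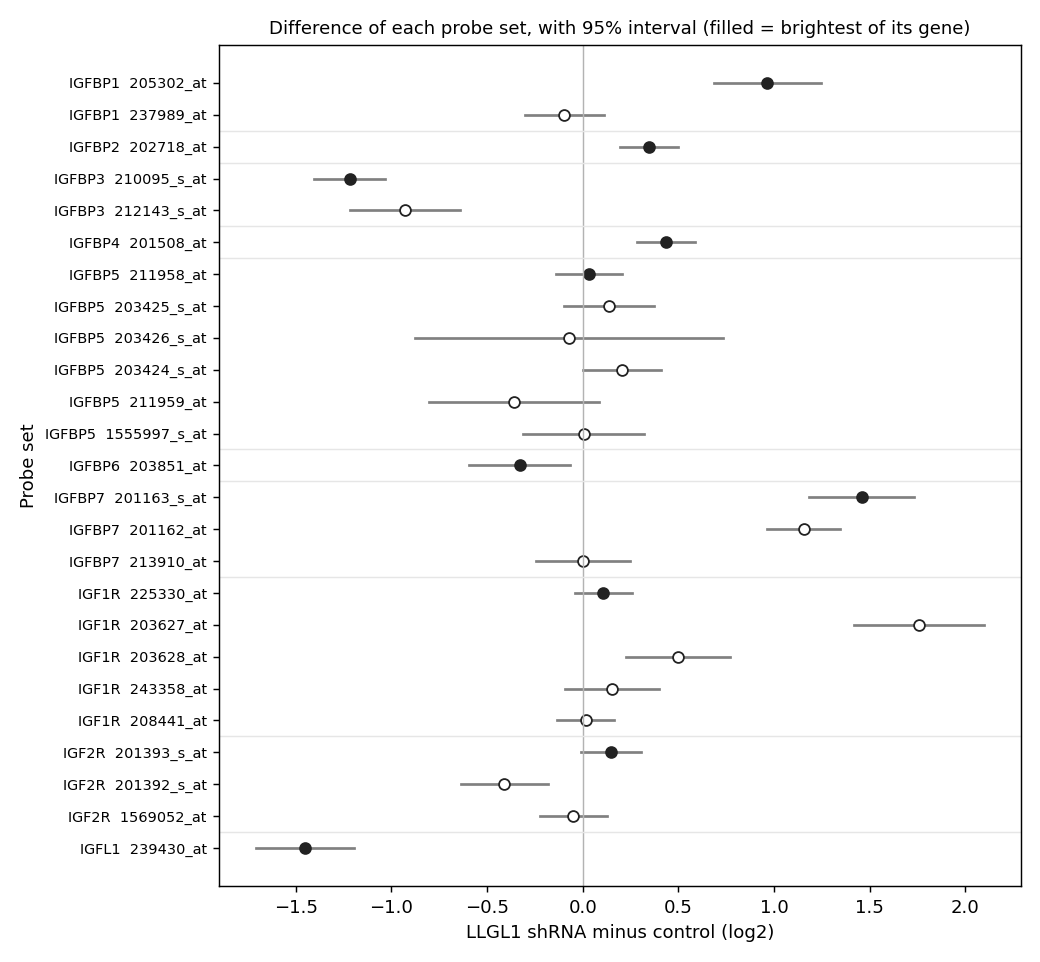
Log2 difference between the arrays labelled LLGL1 shRNA and control (horizontal axis) for each of the 25 probe sets, with its 95% interval from the fit over all probe sets. Filled points are the brightest probe set of each gene. The 2 IGFBP3 probe sets lie together on the left, whereas those of IGF1R spread from 0.01 to 1.76 and those of IGF2R lie on both sides of 0.

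IGFL1 fell most of the 10 genes. Its single probe set, 239430_at, read 6.04 and 6.16 on the control arrays and 4.56 and 4.73 on the arrays labelled LLGL1 shRNA. That is 2.73-fold lower (log2 -1.45, SE 0.0877, 95% interval -1.70 to -1.21, limma adjusted p = 0.0246). IGFL2, a paralogue that lies near it on chromosome 19 with 1 protein-coding gene between them, fell as well. IGFL2 read 8.81 and 8.88 against 8.25 and 8.16, 1.55-fold lower (log2 -0.64, 95% interval -0.82 to -0.46, limma adjusted p = 0.0334). How far probes for either paralogue also bind the other was not examined. IGFLR1, the receptor of IGFL1, read 4.43 and 4.71 against 5.28 and 4.89, and its difference of 0.52 did not pass (limma adjusted p = 0.169).

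IGFBP1 and IGFBP3 are adjacent protein-coding genes on chromosome 7. The first rose in its brighter probe set alone and stayed below the array medians in both groups, while the second fell. IGFBP2 and IGFBP5 are adjacent on chromosome 2, where IGFBP2 rose and IGFBP5 differed by 0.03.

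**Figure D3:**
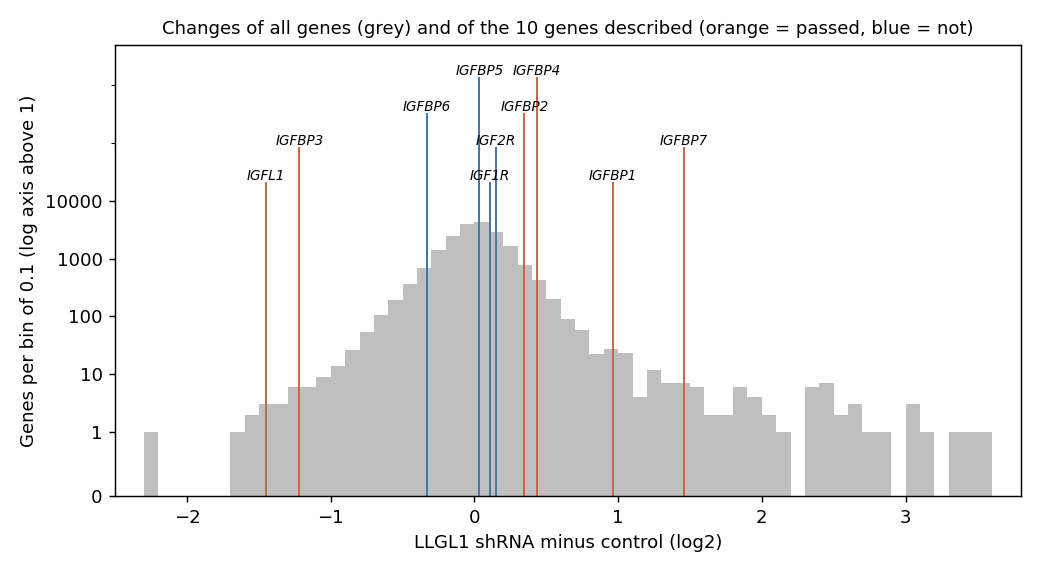
Number of genes per 0.1 of log2 difference between the arrays labelled LLGL1 shRNA and control (grey, log axis above 1), over 19775 genes, with the 10 genes as lines, orange where they passed. IGFL1, IGFBP3, IGFBP1 and IGFBP7 lie in the sparse tails, and the other genes within the bulk.

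Promoters of called genes are shown to set genes that fell beside genes that rose. RefSeq's promoter table (GRCh38.p14) held 8 of the 10 genes, all but IGFBP1 and IGFBP7, and IGFBP2 with 3 starts, of which the outermost was used. The 250 bases before the start are printed for IGFBP3 and IGFL1, which fell, and for IGFBP2 and IGFBP4, which rose. Capitals mark GGGCGG (the GC box bound by SP1 and related factors), ACGTG (the core of the hypoxia response element) and TATAAA (the TATA box), each searched on both strands with overlaps counted.
IGFBP3, chr7:45921273-45921522, minus strand: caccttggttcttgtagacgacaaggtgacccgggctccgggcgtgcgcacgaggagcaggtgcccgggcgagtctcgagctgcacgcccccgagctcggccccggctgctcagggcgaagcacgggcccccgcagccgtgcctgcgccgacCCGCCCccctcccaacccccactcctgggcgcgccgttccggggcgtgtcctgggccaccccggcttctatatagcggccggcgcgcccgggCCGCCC
IGFL1, chr19:46229492-46229741, plus strand: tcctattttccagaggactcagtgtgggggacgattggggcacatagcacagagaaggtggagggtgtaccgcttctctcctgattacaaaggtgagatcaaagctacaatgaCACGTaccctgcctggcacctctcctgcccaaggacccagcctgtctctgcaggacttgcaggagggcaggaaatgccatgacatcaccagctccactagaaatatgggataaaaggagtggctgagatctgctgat
IGFBP2, chr2:216632578-216632827, plus strand: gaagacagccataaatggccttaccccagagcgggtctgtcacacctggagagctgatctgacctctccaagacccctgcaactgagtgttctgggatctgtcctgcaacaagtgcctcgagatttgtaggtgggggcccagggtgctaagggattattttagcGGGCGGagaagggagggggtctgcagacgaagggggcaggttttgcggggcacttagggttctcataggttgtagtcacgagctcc
IGFBP4, chr17:40443200-40443449, plus strand: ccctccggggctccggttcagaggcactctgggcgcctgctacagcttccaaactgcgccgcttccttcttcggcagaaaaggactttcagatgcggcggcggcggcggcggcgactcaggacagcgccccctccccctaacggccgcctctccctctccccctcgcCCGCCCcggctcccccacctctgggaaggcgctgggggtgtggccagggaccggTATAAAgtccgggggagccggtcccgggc

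These windows differed in base composition, from 76.0% G and C in IGFBP3 and 71.6% in IGFBP4 to 56.8% in IGFBP2 and 52.8% in IGFL1. IGFBP3 held 2 matches of GGGCGG, IGFBP2 and IGFBP4 held 1 each, and IGFL1 held none. Over the 8 genes 6 held this motif, which was present in 42.6% of 35116 promoter windows of the same length. The letters ACGTG were found in IGFL1, IGF1R and IGF2R, 3 of 8, against 18.5% of windows, and TATAAA in IGFBP4 alone, against 10.7%. Only these exact letters were counted, and variants of them, such as other forms of the TATA box, were not searched. By that rule the genes that fell shared none of the 3 motifs with each other in this window. The matches are descriptions of the sequence, not of binding.

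Most other genes of the pathway were not called. Of 46 listed genes, 39 were measured by a probe set with 1 symbol, and 5 passed, 2 higher and 3 lower (5 of 39, beside 6.28% of all genes). The median log2 difference of the list was -0.05, against 0.01 over all genes. The remaining 7 genes, IGF2 among them, were not analysed here.

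Among the ligands and the related receptor, IGF1 read 3.70 and 3.59 against 3.64 and 3.48 (log2 difference -0.09, limma adjusted p = 0.557), so its arrays overlapped between groups. INSR, the insulin receptor, which can pair with IGF1R in a hybrid receptor, read 6.41 and 6.29 against 6.09 and 6.02, a difference of -0.30 that did not pass (limma adjusted p = 0.0944).

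The adaptors IRS1 and IRS2, which dock on the activated receptor, moved in opposite directions. IRS1 read 6.80 and 6.82 on the control arrays and 6.34 and 6.37 on the others, 1.37-fold lower (log2 -0.45, 95% interval -0.60 to -0.31, limma adjusted p = 0.0356). Both further IRS1 probe sets were lower too, by -0.27 and -0.68, without passing when tested on their own. IRS2 read 7.14 and 7.08 against 7.51 and 7.47, 1.30-fold higher (log2 0.38, 95% interval 0.23 to 0.54, limma adjusted p = 0.0458). Its second probe set was higher by 0.47, without passing when tested on its own. The remaining 6 adaptors did not pass.

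In the PI3K arm the kinase AKT1 rose and the transcription factor FOXO3, which AKT excludes from the nucleus by phosphorylation, fell. AKT1 read 5.70 and 5.52 against 6.23 and 6.18, 1.50-fold higher (log2 0.59, 95% interval 0.36 to 0.82, limma adjusted p = 0.0445). FOXO3 read 8.22 and 8.30 against 7.86 and 7.75, 1.37-fold lower (log2 -0.46, 95% interval -0.65 to -0.26, limma adjusted p = 0.0493). The 3 further FOXO3 probe sets differed by -0.45, -0.42 and -0.18, all in the same direction, none passing when tested on its own. AKT2 (0.44, limma adjusted p = 0.0527) and PIK3CB (-0.36, 0.0561) lay just outside the threshold and passed after median centring and after cyclic loess, where 7 of the 39 genes passed.

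The protease PAPPA, which cleaves IGFBP4, its relative PAPPA2, which cleaves IGFBP3 and IGFBP5, and the PAPPA inhibitors STC1 and STC2 did not pass, with differences from -0.04 to 0.39. Neither did the acid labile subunit IGFALS, the 4 binding-protein-related genes or the 3 binders of IGF2 mRNA.

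**Figure D4:**
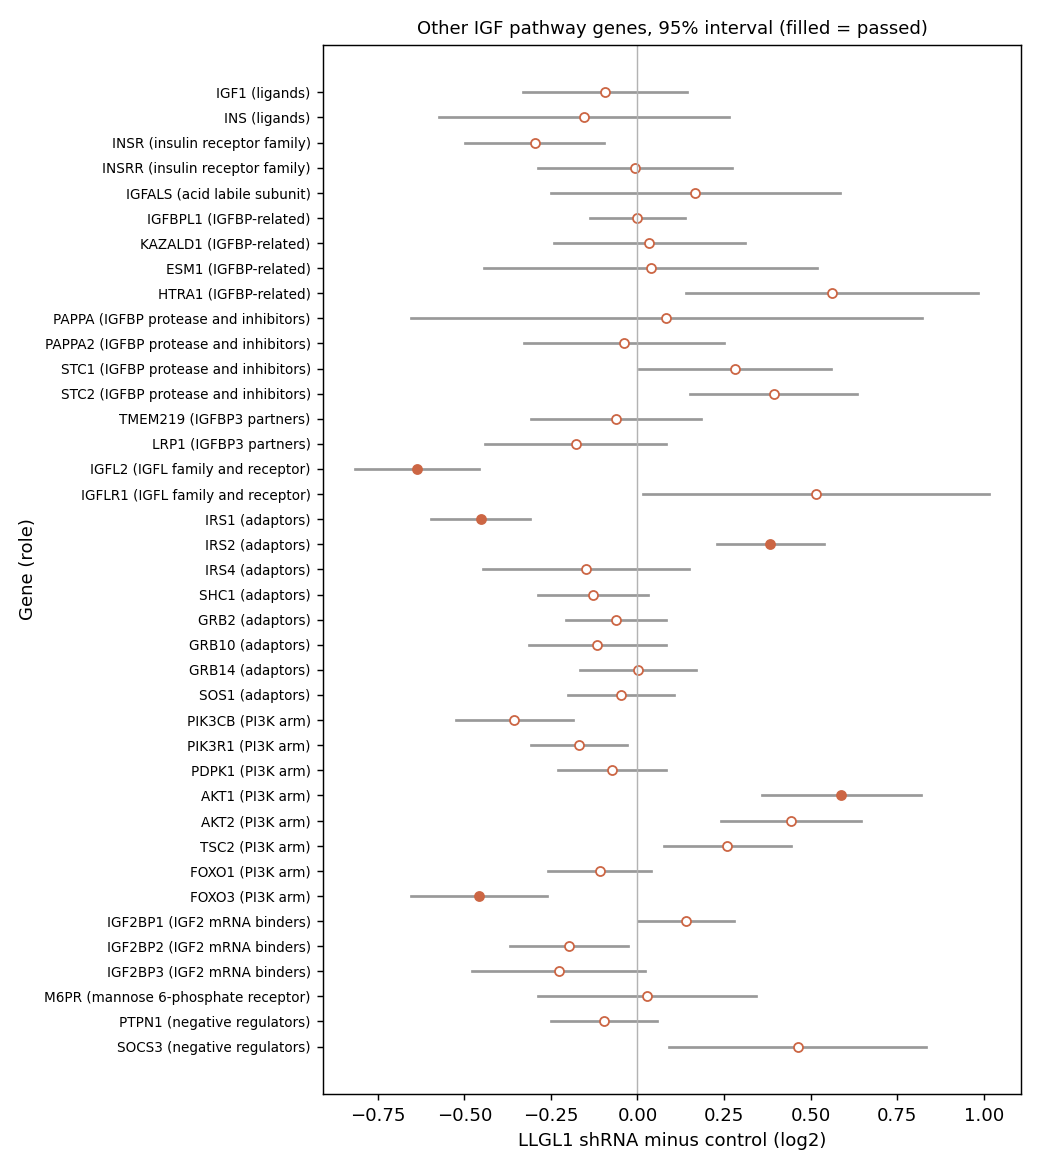
Log2 difference between the arrays labelled LLGL1 shRNA and control (horizontal axis) for the 39 measured genes of the pathway list with their roles, with the 95% interval as a line. Filled points passed: IGFL2, IRS1 and FOXO3 on the left, and IRS2 and AKT1 on the right.

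Genes with the most similar pattern were sought for the member that fell most and the member that rose most, by the root mean square difference of the 4 array values after each gene was centred on its own mean. For IGFL1 these were CLIC5 (0.0564 log2 units), the hyaluronan synthase HAS2 (0.0889) and NDRG1 (0.0912). For IGFBP7 they were DMD, which encodes dystrophin (0.0665), the keratin KRT7 (0.0971) and the phosphatase DUSP1 (0.102). With 4 arrays in 2 groups this measure mainly ranks genes by the size of their group difference.

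The authors' deposited table, which lists the 294 probe sets of the array (0.538%) with group means at least 2-fold apart, held 5 of these 25 probe sets. In the authors' deposited table the ratio of LLGL1 shRNA to control is 3.38 for the IGF1R probe set 203627_at, 2.75 and 2.22 for 2 IGFBP7 probe sets, 0.429 for IGFBP3 and 0.366 for IGFL1. The unadjusted p-values in the authors' deposited table run from 0.00182 for IGFBP3 to 0.00698 for IGF1R. IGF1R appears there through a probe set that is not its brightest.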

How the data were processed

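The authors deposited log2 signals of each probe set on 4 arrays, for which RMA and Partek 6.6 are named, per the submitters' processing notes. No source used here states the background step. A second table, deposited by the authors, gives a ratio and an unadjusted p-value per probe set, per the file headers. Its ratio matched the value table within 1.68e-05 on the log2 scale. The platform annotation gave the gene names. Probe sets with several or no symbols and the 62 control probe sets were left out of the gene fit. The groups were compared with limma 3.58.1 (lmFit, then eBayes) in R 4.3.3, two-sided, with Benjamini-Hochberg adjustment over 19775 genes and a threshold of 0.05, with 2 residual and 1.94 prior degrees of freedom. Intervals and adjusted p of dimmer probe sets come from the same fit over 54613 probe sets. The fit was also run on simulated arrays with independent genes and variances drawn from limma's own prior. That run checks the code and cannot show whether the calls in these data hold. No p-value was adjusted over the members or the list alone, and no set test was run. Alternatives covered scaling, moderation, a filter, the use of probe sets, a replicate block and leaving out each array. The number of arrays limits the precision. Named genes were all members with each probe set, LLGL1, pathway genes past the threshold with IGF1, IGF2 and INSR always, and the 3 most similar genes (mean log2 of at least 5) of the members with the largest fall and rise. Genes outside this rule, among them IGFLR1, AKT2, PIK3CB, FGB and the other pathway and marker genes with no call, were named after their values were seen. The members and lists were chosen with earlier results of these data known.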

Additional observations from a re-analysis of the deposited data

How the results depend on the processing

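The same 6 of the 10 genes passed after median centring and cyclic loess. With trend and robust moderation 7 passed, IGFBP6 added, and with the mean of all probe sets 7, IGF1R added. Without genes under the median level 6 of 8 tested passed, with IGFBP6 added and IGFBP1 no longer tested. The count in limma was 0 with every probe set tested on its own, a rule that called 0.125% of all probe sets. Fits without 1 array leave a lone array in a group and are given below by the size of the difference only. Those fits assume that the lone array varies like the other group. Of the 39 pathway genes 5 passed, 7 under both scalings and 6 with the mean of probe sets. With trend and robust moderation 13 passed, and without genes under the median level 13 of 25 tested. With every probe set tested on its own 0 passed. Of all 19775 genes 1242 passed, against 1881 after median centring, 2096 after cyclic loess and 1210 with the mean of all probe sets. With trend and robust moderation 3935 passed, and 3984 of 9888 without those under the median level.

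The titles give both groups replicates 1 and 2, but no label says that a number marks a shared culture. With the replicate block 0 of the 10 genes and 0 of the 39 pathway genes passed in limma, as did 0 of all 19775 genes (lowest adjusted p 0.0945). Deviations of same-numbered arrays correlated at -0.13. With the numbers crossed as the block, a choice made after seeing the data, again 0 and 0 passed, beside 0 of all genes.

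Signs turned only for values near 0 or in the disagreeing probe sets. With the mean of all probe sets LLGL1 was 0.0079, IGFBP5 -0.0089 and IGF2R -0.10, none past the threshold, and without 1 array IGFBP5 ran from -0.0076 to 0.074. Median centring gave -0.0022 for IGFBP5 1555997_s_at and -0.0059 for IGFBP7 213910_at. Without 1 array IGFBP7 213910_at ran from -0.086 to 0.086, IGFBP5 203426_s_at from -0.43 to 0.29 and IGFBP5 1555997_s_at from -0.13 to 0.14. The called genes kept their sign, which only median centring, cyclic loess and the mean of probe sets could have turned. Moderation, the filter, single probe sets and the blocks leave the difference itself unchanged. Groups that do not overlap keep their sign whichever array is left out. Differences ran from -1.27 to -1.07 for IGFBP3, -1.53 to -1.37 for IGFL1 and 0.87 to 1.55 for IGFBP7. They ran from 0.43 to 1.08 for IGFBP1, 0.42 to 0.45 for IGFBP4 and 0.34 to 0.36 for IGFBP2. Causes of these shifts were not tested.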
